A study of Rattus norvegicus with 31 samples.

Results

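Metabotropic glutamate receptors (mGluRs) are the G protein-coupled receptors for glutamate, and 6 of their genes (Grm2, Grm3, Grm4, Grm5, Grm7 and Grm8) were looked for on arrays of hippocampal CA3. Only the 16204 probesets with deposited values, whose lowest mean was 5.00, could be searched. Among them, every probeset that the array annotation gives to a member gene and to no other gene was taken. This gave 5 probesets for 4 of the 6 genes, with 1 probeset each for Grm3 (1388189_at), Grm7 (1369781_at) and Grm8 (1371242_at) and 2 for Grm5, out of 16204 probesets in all. Of all probesets, 12242 carry the name of a single gene and cover 9037 genes. Grm2 and Grm4 are not analysed here.

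The tissue was CA3 dissected by hand from aged male outbred Long-Evans rats, with both hemispheres of a rat pooled and 1 array per rat. Rats had been classed in the watermaze as aged unimpaired (AU) or aged impaired (AI), and were then trained with a visible platform in a new room, either with a fixed platform among cues (spatial, S) or with a moving platform and the cues taken away (non-spatial, NS). The groups were AU-S (8 rats), AU-NS (8), AI-S (8) and AI-NS (7). AU-act (16) and AI-act (15) stand for the rats of a phenotype over both tasks. All rats were aged and all were trained, so neither the effect of age nor that of training itself can be read from these groups, and the classing describes natural differences between outbred animals rather than a lesion or a genetic change.

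mGluRs fall into 3 groups. Group I, which includes Grm5, lies mostly on the postsynaptic side and acts through Gq and phospholipase C, which raises intracellular calcium and activates protein kinase C. Group II (Grm2 and Grm3) and group III (Grm4, Grm7 and Grm8) act through Gi and Go, lower cyclic AMP and, on presynaptic terminals, reduce transmitter release. Grm3 is also made by astrocytes, and Grm7 and Grm8 sit in or near the active zone, where Grm7 answers only to high glutamate and Grm8 to low glutamate. In CA3 such receptors are found on the endings of excitatory inputs and of interneurons.

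The results turn on the group III genes Grm8 and Grm7, and the 250 bases before the annotated start of each are shown for that reason. They come from RefSeq on the rat build GRCr8, are written in the direction of the gene, and have the GC box (GGGCGG or its reverse complement CCGCCC, the core of Sp1 sites) in capitals. Of 33469 promoters of the same length, 30.5% hold that motif.
Grm8, chr4:57687507-57687756, minus strand: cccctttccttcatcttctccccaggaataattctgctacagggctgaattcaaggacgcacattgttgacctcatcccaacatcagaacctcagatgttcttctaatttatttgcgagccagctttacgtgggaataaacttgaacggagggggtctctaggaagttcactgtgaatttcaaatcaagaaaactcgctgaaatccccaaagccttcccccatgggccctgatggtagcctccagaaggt
Grm7, chr4:145286476-145286725, plus strand: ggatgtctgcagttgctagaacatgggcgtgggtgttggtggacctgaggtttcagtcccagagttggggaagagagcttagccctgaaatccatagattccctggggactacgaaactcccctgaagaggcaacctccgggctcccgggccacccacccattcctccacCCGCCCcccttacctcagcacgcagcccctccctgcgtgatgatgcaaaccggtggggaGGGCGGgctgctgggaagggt
The Grm7 stretch holds 2 GC boxes, has 62.0% of its bases as G or C and contains 9 CG dinucleotides, while the Grm8 stretch holds none, has 47.2% G or C and contains 5. The median over all promoters was 51.2% G or C. Grm5 is matched in the same table, with 36.4% G or C, 1 CG dinucleotide and no GC box. None of the 3 stretches has the cyclic AMP response element TGACGTCA, which is in 1.59% of promoters, or its shorter form TGACG, which is in 18.2%. These are letters in a window and say nothing about binding in these rats.

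Values are log2 levels made by the authors with gcRMA, and each group was compared with limma on all probesets. A probeset was called at an adjusted p under 0.05 for AU-act against AI-act and under 0.1 for the other comparisons, the false discovery rates the study used. The arrays were alike, with medians between 8.97 and 9.14 and a mean correlation with the other arrays of 0.981 to 0.989. All 10 astrocyte markers and 5 of 7 CA3 markers (Grik4, Bok, Cpne4, Plagl1 and Spock1) were on the arrays, as were 10 of 11 interneuron markers, 7 of 8 oligodendrocyte markers, 5 of 8 microglia markers, 4 of 5 CA1 markers, 2 of 7 dentate granule cell markers (Prox1 and Calb1) and 3 of 4 endothelial and blood markers (Cldn5, Flt1 and Alb). The mean centred level of the CA3 markers differed by 0.06 between AU-act and AI-act (permutation test, p = 0.15). Control probesets at both ends of Gapdh and beta-actin give a measure of RNA quality, called here the RNA control difference (log2 signal of the 3′ end less that of the 5′ end, larger in fragmented RNA). It was 1.45 ± 0.10 (SD, n = 16) in AU-act and 1.59 ± 0.13 (SD, n = 15) in AI-act, higher in the impaired rats by a two-sided permutation test (p = 0.00041).

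Grm8 was lower in unimpaired rats. In AU-S its log2 level had a lowest value of 8.53, a median of 8.66 and a highest value of 9.09, and in AU-NS these were 8.32, 8.77 and 9.05. In AI-S they were 8.71, 9.04 and 9.26, and in AI-NS 8.78, 9.07 and 9.59. The groups overlap, but 7 of 16 unimpaired rats lay below every impaired rat and 6 of 15 impaired rats lay above every unimpaired rat. The means were 8.73 ± 0.20 (SD, n = 16) in AU-act and 9.07 ± 0.22 (SD, n = 15) in AI-act. AU-act minus AI-act was -0.34 on the log2 scale (SE 0.07, 95% interval -0.49 to -0.19), a level 0.79 times that of AI-act, with a limma adjusted p of 0.00569. In 15 of 16 unimpaired rats the value was below the AI-act mean. Grm8 was the 1 member probeset of 5 called lower in this comparison, against 0.512% of all probesets (83 of 16204). In bulk tissue, less RNA per cell and fewer cells that make the RNA cannot be told apart.

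**Figure D1:**
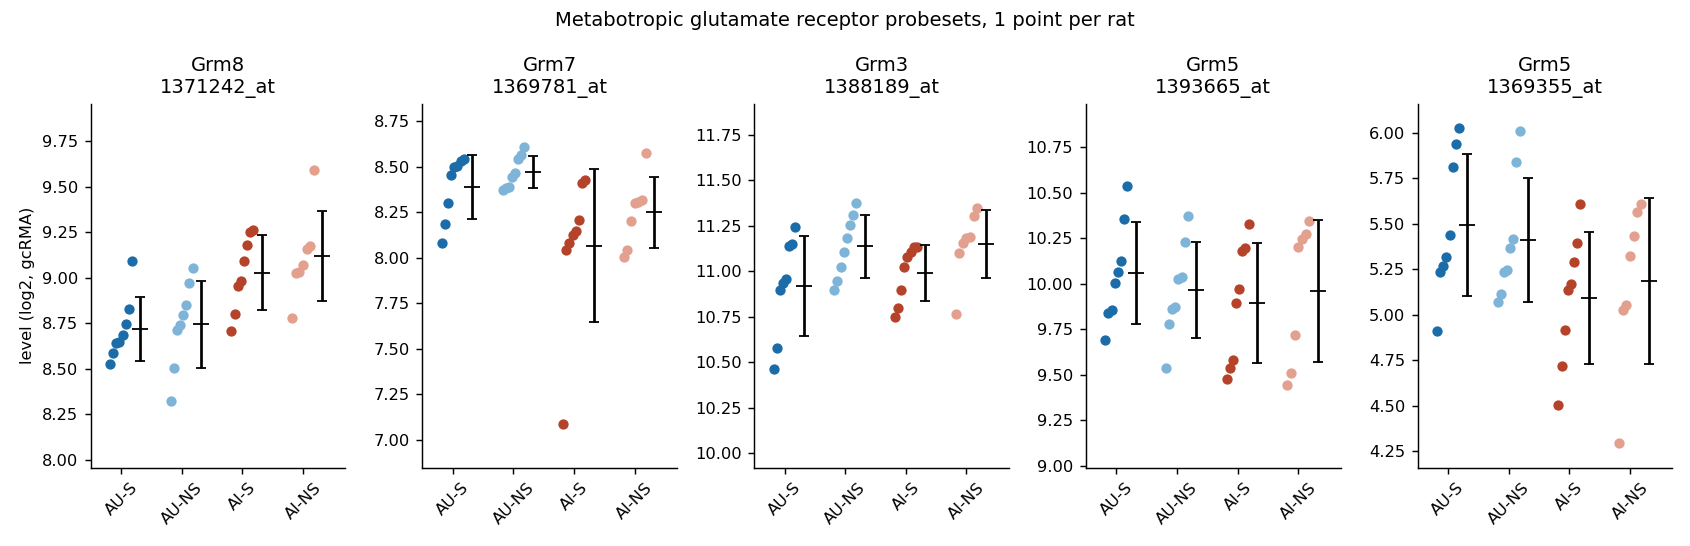
Log2 level (vertical axis, gcRMA, each panel spanning 2 units around its own probeset) of the 5 receptor probesets in the AU-S, AU-NS, AI-S and AI-NS groups, with 1 point per rat and bars for the mean and SD. Grm8 sits lower in the AU groups, where its values run from 8.32 to 9.09, than in the AI groups, where they run from 8.71 to 9.59, and 1 AI-S rat has Grm7 at 7.09, apart from the rest.

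By task, without covariates, the Grm8 difference was -0.31 for AU-S minus AI-S (SE 0.09, 95% interval -0.51 to -0.11) with a limma adjusted p of 0.178. It was -0.38 for AU-NS minus AI-NS (SE 0.12, 95% interval -0.63 to -0.13) with a limma adjusted p of 0.237, and all 8 AU-NS rats were below the AI-NS mean. Neither passed the threshold with the smaller groups. The difference between these differences was 0.07 (SE 0.15, 95% interval -0.25 to 0.38; limma adjusted p of 0.9999), so no effect of task on the Grm8 difference was detectable, and one of up to 0.38 is within the interval. Without AI-S replicate 7, which had the lowest Grm8 value of its group, AU-S minus AI-S was -0.36 and passed (limma adjusted p = 0.0642). Between tasks Grm8 differed by -0.02 (SE 0.10) for AU-S minus AU-NS and by -0.09 (SE 0.11) for AI-S minus AI-NS. Ordered by mean from the highest, the groups ran AI-NS, then AI-S, then AU-NS, then AU-S. The step from AI-S to AU-NS, 0.29, was larger than the SD within groups of 0.22, and the other steps were smaller than it.

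With the RNA controls in the fit, the Grm8 difference was smaller over both tasks and in NS rats, and in S rats it hardly moved with Gapdh and beta-actin. With the RNA control difference as a covariate, AU-act minus AI-act was -0.21 and no longer passed (limma adjusted p = 0.297). With that of the hexokinase control probesets, which was -0.38 for AU-act minus AI-act (permutation p = 3e-05), it was -0.19 (limma adjusted p = 0.687). By task, the RNA control covariate left AU-S minus AI-S at -0.31 (limma adjusted p = 0.286) and took AU-NS minus AI-NS from -0.38 to -0.10 (limma adjusted p = 0.9997). With the hexokinase covariate these were -0.26 and -0.18. Of all arrays, AI-NS replicate 8 had both the highest RNA control difference (1.92) and the highest Grm8 level (9.59). The covariate fits were not repeated without that array. In the fit of all 4 groups with the RNA control covariate, the difference between the tasks was 0.00 (limma adjusted p = 0.999). These covariates also left 1 and 0 of all probesets called, against 893 without them. Over the 31 arrays, with values centred on the group means, Grm8 and the RNA control difference had a Pearson r of 0.48 (permutation p = 0.0141) and a Spearman rho of 0.41 (permutation p = 0.0304), and r was 0.45 without the 2 arrays farthest from the median. After adjustment over 35 relations these p-values were 0.166 and 0.355. The part of RNA quality in the Grm8 difference was not tested beyond these fits. With the dentate granule and CA1 scores as covariates the difference was -0.37 (limma adjusted p = 0.00225).

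**Figure D2:**
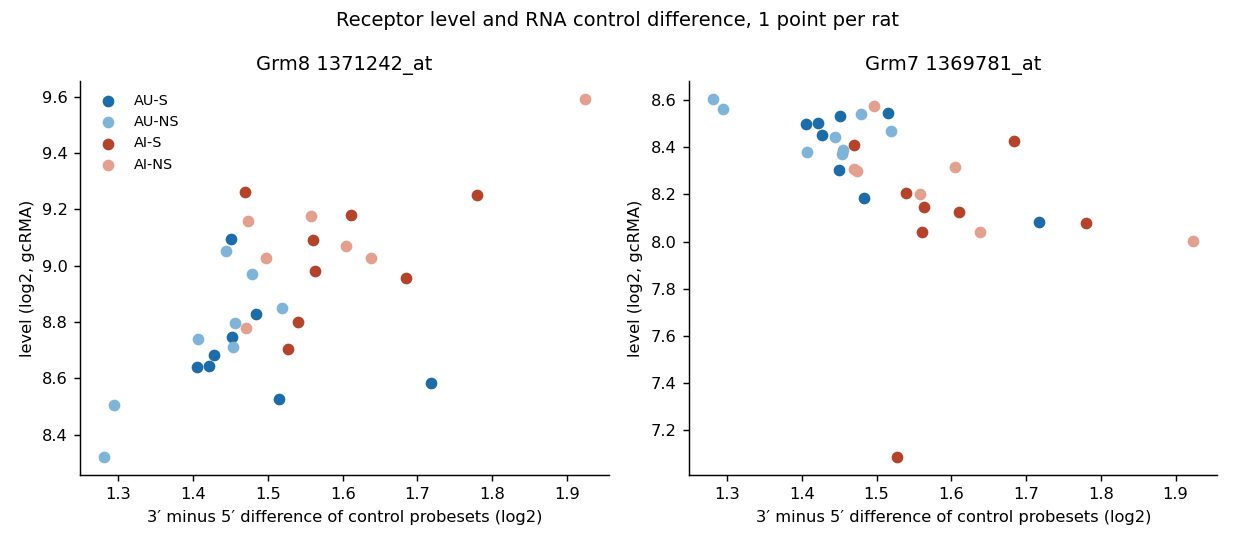
Log2 level of Grm8 (left) and Grm7 (right) on the vertical axes against the RNA control difference (3′ less 5′ signal of Gapdh and beta-actin, log2, horizontal axis), with 1 point per rat coloured by group. The AU rats lie to the left with a mean of 1.45 and the AI rats to the right with a mean of 1.59, and the AI-NS rat at 1.92 has the highest Grm8 level, 9.59.

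Grm7, the other group III receptor, had values in the opposite direction. Its log2 level had a lowest value of 8.08, a median of 8.47 and a highest value of 8.54 in AU-S, and 8.37, 8.45 and 8.61 in AU-NS. In AI-S these were 7.09, 8.14 and 8.43, and in AI-NS 8.00, 8.30 and 8.58. All groups overlap, with 5 of 15 impaired rats below every unimpaired rat. AU-act minus AI-act was 0.28 (SE 0.09, 95% interval 0.10 to 0.46), a level 1.21 times that of AI-act, and did not pass the threshold (limma adjusted p = 0.0599). In 15 of 16 unimpaired rats the value was above the AI-act mean.

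The side of the threshold on which Grm7 fell hung on single arrays and on the test. AI-S replicate 7 held the value of 7.09. Without that array the difference was smaller, at 0.20, and passed (limma adjusted p = 0.0259). It also passed without AI-NS replicate 4 (limma adjusted p = 0.0488), AI-NS replicate 6 (0.0302), AI-S replicate 1 (0.0402) or AU-S replicate 5 (0.0431), and with array weights (0.0314) or SAM (q value of 0.0462). With the RNA control covariate it was 0.19 (limma adjusted p = 0.489) and with the hexokinase covariate 0.26 (limma adjusted p = 0.649) over both tasks. By task, AU-S minus AI-S was 0.32 (SE 0.15, 95% interval 0.01 to 0.64; limma adjusted p of 0.398) and AU-NS minus AI-NS was 0.22 (SE 0.08, 95% interval 0.06 to 0.38; limma adjusted p of 0.277). AU-S minus AI-S was 0.18 without AI-S replicate 7, 0.13 with the granule and CA1 covariates and 0.66 with the hexokinase covariate, and AU-NS minus AI-NS was 0.08 and 0.06 with the RNA control and hexokinase covariates. All 8 AU-NS rats were above the AI-NS mean. All 8 AU-S rats were above the AI-S mean, and 6 of 8 were above it once AI-S replicate 7 was left out. With values centred on the group means, Grm7 and the RNA control difference had r of -0.26 (permutation p = 0.157, adjusted 0.548). Their rho was -0.40 (permutation p = 0.0238, adjusted 0.355), and r was -0.08 without the 2 farthest arrays.

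**Figure D3:**
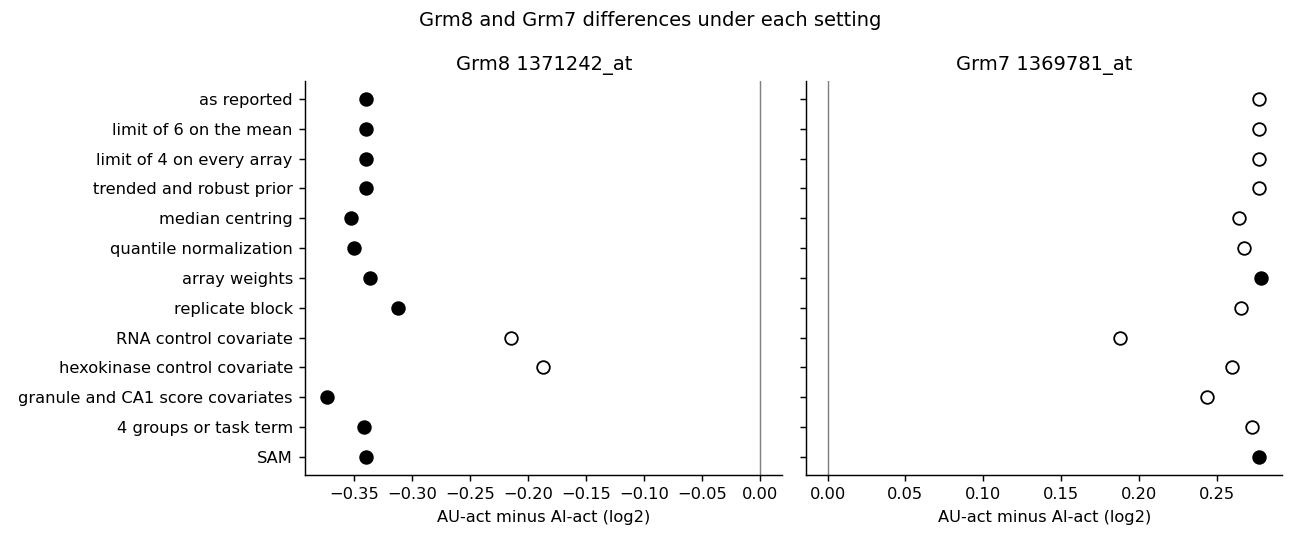
AU-act minus AI-act on the log2 scale (horizontal axis) for Grm8 (left) and Grm7 (right) as reported and under each of 12 other settings, with filled points where the adjusted p, or the q value of SAM, is under 0.05. Grm8 lies between -0.37 and -0.19 and is open with the RNA control and hexokinase covariates, and Grm7 lies between 0.19 and 0.28 and is filled with array weights and SAM.

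For Grm3, the group II receptor analysed here, no difference between the phenotypes was detected. Its log2 level had a lowest value of 10.47, a median of 10.95 and a highest value of 11.24 in AU-S, and 10.90, 11.14 and 11.38 in AU-NS. In AI-S these were 10.75, 11.05 and 11.14, and in AI-NS 10.77, 11.18 and 11.35. AU-act minus AI-act was -0.04 (SE 0.08, limma adjusted p = 0.852), with a 95% interval of -0.19 to 0.12. Its means were ordered by task rather than by phenotype, with both NS groups above both S groups. S minus NS was -0.22 in AU rats (SE 0.11, 95% interval -0.45 to 0.01; limma adjusted p of 0.630) and -0.16 in AI rats (SE 0.09, 95% interval -0.35 to 0.03; limma adjusted p of 0.862). All 8 AI-S rats were below the AI-NS mean, and 5 of 7 AI-NS rats were above every AI-S rat. Neither difference passed the threshold, and no step between neighbouring groups was larger than the SD within groups of 0.20.

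Grm5, the group I receptor, was measured by 2 probesets that were read apart, since levels of different probesets cannot be set against each other. For the brighter (1393665_at) the lowest, median and highest log2 levels were 9.69, 10.03 and 10.54 in AU-S and 9.53, 9.95 and 10.37 in AU-NS. They were 9.48, 9.93 and 10.33 in AI-S and 9.44, 10.20 and 10.34 in AI-NS, so that all groups overlap. AU-act minus AI-act was 0.09 (SE 0.11, 95% interval -0.13 to 0.30; limma adjusted p of 0.720). This value turned to -0.04 with the RNA control covariate and to -0.12 with the hexokinase covariate. With values centred on the group means, this probeset and the RNA control difference had r of -0.36 (permutation p = 0.0812, adjusted 0.406). Their rho was -0.38 (permutation p = 0.0473, adjusted 0.367), and r was -0.25 without the 2 farthest arrays.

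The dimmer Grm5 probeset, 1369355_at, had a mean of 5.30 over all arrays, close to the lowest mean in the table of 5.00. Its lowest, median and highest log2 levels were 4.91, 5.38 and 6.03 in AU-S, 5.07, 5.30 and 6.01 in AU-NS, 4.50, 5.15 and 5.61 in AI-S, and 4.29, 5.32 and 5.61 in AI-NS. AU-act minus AI-act was 0.32 (SE 0.13, 95% interval 0.05 to 0.58) and did not pass the threshold (limma adjusted p = 0.159). With the RNA control covariate it was 0.12 and with the hexokinase covariate -0.01. Its level and the RNA control difference had r of -0.44 (permutation p = 0.0284, adjusted 0.166) and rho of -0.52 (permutation p = 0.00385, adjusted 0.135), with r of -0.41 without the 2 farthest arrays. Across arrays the Grm5 probesets went together, with a Pearson r of 0.86 and a Spearman rho of 0.83 over 31 arrays centred on the group means (permutation p = 1e-05 for both, the smallest that 100000 resamples give, and 0.0001 adjusted over 10 pairs), and r was 0.87 without the 2 arrays farthest from the median. None of the other 9 pairs of member probesets passed an adjusted p of 0.05, and Grm7 with Grm8 had r of 0.04 and rho of -0.25.

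**Figure D4:**
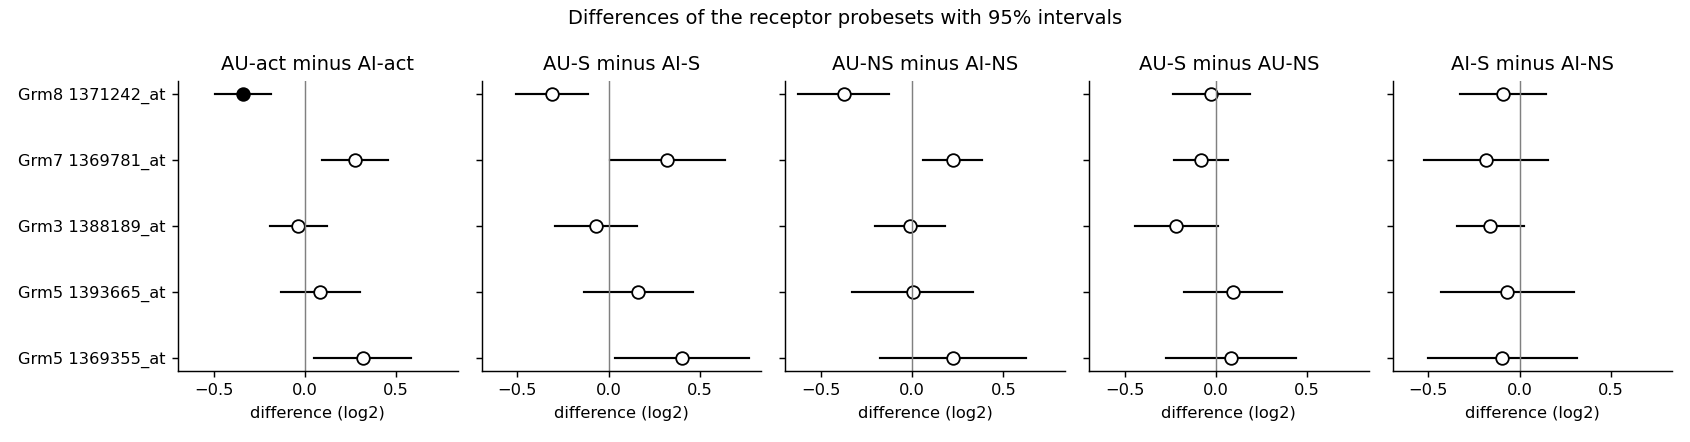
Differences on the log2 scale (horizontal axes) of the 5 receptor probesets in 5 comparisons, with limma's 95% intervals as lines and a filled point where the probeset was called. The filled point is Grm8 for AU-act minus AI-act at -0.34, and in the S minus NS panels all intervals include 0.

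No receptor probeset was called higher in AU-act, where 5% of all probesets (810 of 16204) were. The median difference of the 5 probesets was 0.09, which is the value of the brighter Grm5 probeset, and that of all probesets 0.01. The median was 0.02 with the brightest probeset of each gene, -0.04 with the RNA control covariate and -0.11 with the hexokinase covariate. None of the 5 was called for AU-S against AI-S, where 0.413% of all probesets (67) were. For AU-NS against AI-NS, AU-S against AU-NS, AI-S against AI-NS and the interaction of phenotype and task, 0% of all probesets were called by limma, with 1858, 1316, 662 and 396 at an unadjusted p under 0.05. SAM also called no receptor probeset in the comparisons within a task or phenotype, where its calls over all probesets were not counted. In the interaction the receptor values lay between -0.06 and 0.18, and the limma adjusted p was 0.9999 for each. A difference between the tasks in how the phenotypes differ was therefore not detectable for any of these receptors, with intervals that reach 0.72 for the dimmer Grm5 probeset.

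Single markers and the scores of marker lists were compared between the phenotypes. The mean centred levels of the interneuron, astrocyte, oligodendrocyte and microglia markers differed between AU-act and AI-act by 0.02, 0.04, 0.06 and -0.10 (permutation p of 0.744, 0.0928, 0.2 and 0.403). Of the 46 markers, 3 were called in this comparison, where 5% of all probesets were called higher and 0.512% lower. They were Gad2, which makes GABA in interneurons, at 0.48 (limma adjusted p = 0.0391), the CA3 marker Spock1 at 0.27 (limma adjusted p = 0.0138), and Alb, which codes for albumin, at -0.65 (limma adjusted p = 0.0139). The other markers of their lists were not called and had values of either sign. The dentate granule score was lower in AU-S (-0.45 to 0.30) than in AI-S (-0.38 to 0.79), with a difference of -0.45 (exact permutation p = 0.0103). It differed by 0.20 between AU-NS and AI-NS (exact permutation p = 0.177), by -0.14 over both tasks (permutation p = 0.24) and by 0.49 for AI-S minus AI-NS (exact permutation p = 0.0238), and neither Prox1 nor Calb1 was called between AU-act and AI-act. The endothelial and blood score was 0.19 lower in AU-act (-0.36 to 0.23) than in AI-act (-0.26 to 0.32; permutation p = 0.00218), and of its genes other than Alb, Cldn5 had 0.09 (limma adjusted p = 0.553) and Flt1 -0.01 (limma adjusted p = 0.951). Whether these markers had a part in the receptor differences was not tested, apart from the fits with the granule and CA1 scores. Of 35 relations between a receptor probeset and a marker score or the RNA controls, none passed an adjusted p of 0.05. For Grm3, r was 0.44 with the astrocyte score (permutation p = 0.0175, adjusted 0.166) and 0.43 with the oligodendrocyte score (permutation p = 0.0229, adjusted 0.166), with rho of 0.35 and 0.36 (adjusted 0.367 for both) and r of 0.40 for each without the 2 farthest arrays. For Grm8 and the CA1 score r was -0.44 (permutation p = 0.0274, adjusted 0.166) and rho -0.30 (adjusted 0.519), with r of -0.31 without the 2 farthest arrays. For the dimmer Grm5 probeset and the oligodendrocyte score r was -0.44 (permutation p = 0.0234, adjusted 0.166) and rho -0.34 (adjusted 0.367), with r of -0.24 without them.

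The genes through which mGluRs signal were then counted, each by its brightest probeset. Of 26 measured G proteins and effectors, 3 were called higher in AU-act and none lower, with a median difference of 0.06. The share called higher was 11.5% of these genes. Of all probesets, dim ones included, 5% were called higher and 0.512% lower. These shares count unlike units and were not tested against each other. Gng2, a G protein gamma subunit, had 0.25 (SE 0.05) with a limma adjusted p of 0.00374, and its second probeset had 0.29 (limma adjusted p = 0.0183). Gnai1, an alpha subunit of the Gi class to which group II and III receptors couple, had 0.31 (SE 0.08) with a limma adjusted p of 0.0108. Prkca, the alpha form of protein kinase C on the group I pathway, had 0.37 (SE 0.09) with a limma adjusted p of 0.0118. A dimmer probeset of Gnaz, another Gi class alpha subunit, was higher by 0.52 (limma adjusted p = 0.0224), while its brightest had 0.01. With the RNA control or hexokinase covariate none of the 26 genes was called, and of all probesets 1 and 0 were.

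None of 27 measured anchors and regulators, such as the Homer and Shank scaffolds, arrestins and RGS proteins, was called in either direction. Of all probesets, 5% were called higher and 0.512% lower. A count of 0 in a list of this length was not tested against these shares. The median difference of the 27 was 0.05. The smallest adjusted p was that of Siah1, a ubiquitin ligase that binds group I receptors, at 0.14 (SE 0.05, limma adjusted p = 0.117). Next came Grk6, a receptor kinase, at 0.11 (limma adjusted p = 0.163), and Dlgap1, a postsynaptic scaffold protein, at -0.16 (limma adjusted p = 0.206). The probesets of Dlgap1 disagreed, since a dimmer one was higher by 0.27 (limma adjusted p = 0.0293). Without AI-S replicate 7, 1 gene of this list was called, Siah1 at 0.16 (limma adjusted p = 0.0388). The calls over all probesets were not counted in that fit.

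None of 13 measured genes of glutamate supply and removal was called by its brightest probeset, against 5% of all probesets higher and 0.512% lower. Their median difference was 0.04. Glud1, glutamate dehydrogenase, had 0.14 (limma adjusted p = 0.132), Slc17a7, the vesicular glutamate transporter VGLUT1, had 0.21 (0.272) and Slc1a2, the glial transporter GLT-1, had 0.15 (0.349). Dimmer probesets of Glul, glutamine synthetase (0.37, limma adjusted p = 0.0256), and of Slc1a3, the glial transporter GLAST (0.20, limma adjusted p = 0.019), were higher in AU-act. Against the same shares of all probesets, none of 11 measured ionotropic glutamate receptor genes was called, with a median of 0.06. Among them Gria1, an AMPA receptor subunit, had 0.21 (limma adjusted p = 0.308), Grin1, the obligate NMDA receptor subunit, had 0.10 (0.353) and Gria2, another AMPA receptor subunit, had 0.05 (0.468). Slc1a2 and Slc1a3 are also among the astrocyte markers, and Grik4 among those of CA3. No gene of the 4 lists was called in the S minus NS comparisons, where 0% of all probesets were called.

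**Figure D5:**
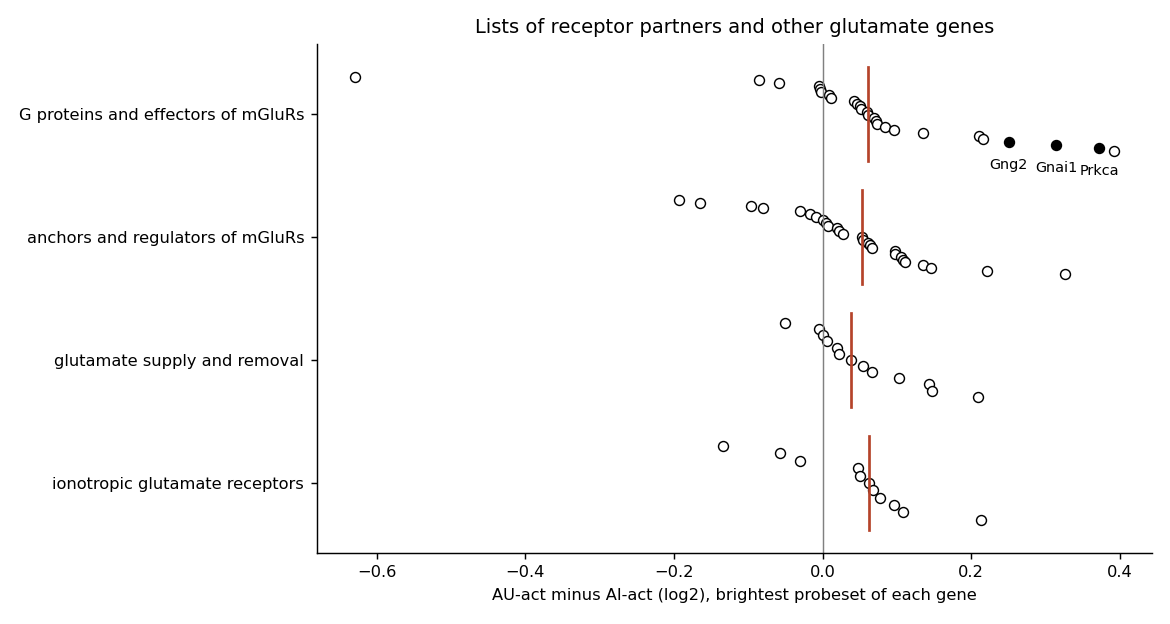
AU-act minus AI-act on the log2 scale (horizontal axis) for the brightest probeset of each gene in 4 lists, with filled, named points for genes called by limma and a red line at each list's median. The filled points are Gng2, Gnai1 and Prkca at 0.25, 0.31 and 0.37, and the medians lie between 0.04 and 0.06.

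Finally, the probesets whose values were most like those of each receptor were sought over the 31 arrays, with values centred on the group means so that differences between groups do not enter. Each search covered 12240 or 12241 probesets named by a single gene, the arrays share one normalization, and the values are descriptions without a test. Grm8 was most like Gapvd1 (r of 0.73), Pwwp2a (0.72) and Gpx3 (0.71), and of these none was called between the phenotypes. Grm7 was most like Camk2a (0.72), the alpha subunit of the calcium-calmodulin kinase CaMKII, Fbh1 (0.70) and Sgcb (0.70), with a rho of 0.54, 0.66 and 0.52. Grm3 was most like Ncam1 (0.83), a neural cell adhesion molecule, Gm2a (0.81), a lysosomal lipid-binding protein, and Arhgef12 (0.76). Grm5 was most like Atxn7 (0.70), Bmpr1a (0.68), a receptor for bone morphogenetic proteins, and Pclo (0.66), the active zone protein Piccolo. The highest r was thus found for Grm3 and the lowest for Grm5.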

How the data were processed

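CA3 RNA of 31 rats was hybridised to Affymetrix rat expression arrays. The authors made the deposited log2 values with gcRMA (version not given in the sources used here) and left out 1 AI-NS array. Their lower limit of 4, applied here to the mean of a probeset, removed 0 of the deposited probesets, whose lowest mean was 5.00. Groups came from the sample titles. Probesets were named through GEO's platform annotation (293 named by several genes and 3669 by none were given no name). Comparisons used lmFit and eBayes of limma 3.58.1 under R 4.3.3 (two-sided, Benjamini-Hochberg adjustment over all 16204 probesets), in place of the SAM of the methods, which was coded by hand with 100 permutations as an alternative. The code was tested on simulated data. Scores are means over marker genes of log2 levels centred on each gene's mean over the arrays, and relations and scores were tested by permutation (exact within a task or phenotype, otherwise 100000 resamples) with Python 3.11, numpy 2.4.6 and scipy 1.17.1. Figures were drawn with matplotlib 3.10.9. Member genes and lists were chosen with earlier results of these data known. Named genes were all member probesets, the 3 genes per list that had the smallest adjusted p for AU-act against AI-act and the 3 probesets most like each receptor, and dimmer list probesets were named where they passed. Precision is limited by the number of rats, since arrays hold no counts, and p-values measure the spread between rats. Alternatives were other intensity limits, priors, normalizations and array weights, a replicate block, RNA control or dissection covariates, a joint fit, SAM, calling a gene by any of its probesets, and leaving out every array in turn. Some probesets of the array design are not used here.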

Additional observations from a re-analysis of the deposited data

Results flagged for a closer look

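An array was sought that lay apart from its group in each of 20 groups (5 probesets in 4 groups), of which chance flags about 1 in 20, and 2 did. For Grm7 in AI-S, replicate 7 was lowest at 7.09 with the next rat at 8.04, a gap of 0.713 of the whole range of the group. That array ranked 30 of 31 for the dentate granule score (0.63) and 20 of 31 for the RNA control difference of Gapdh and beta-actin (1.53). For Grm3 in AI-NS, replicate 8 was lowest at 10.77 with the next rat at 11.10, a gap of 0.579 of the range. That array had the highest control differences of all, 1.92 for Gapdh and beta-actin and 2.38 for hexokinase, and the lowest astrocyte score, -0.21. Whether these values had a part in the low receptor levels was not tested.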

How the results depend on the processing

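Under the alternatives no called receptor difference changed its direction, and of 964 recomputed differences 40 had another sign, none of them called. For AU-act against AI-act, Grm8 passed in all 31 fits with an array left out (-0.37 to -0.30, limma adjusted p of 0.00205 to 0.0107) and in 10 of 12 settings. It did not pass with the RNA control covariate (-0.21) or the hexokinase covariate (-0.19). Under these, 0 receptor probesets and 0 genes of the G protein list were called, in place of 1 and 3. Of all probesets they left 1 and 0 called, in place of 893. With array weights and with SAM 2 receptor probesets were called, Grm8 and Grm7 (0.28 in both). SAM called 1219 of all probesets, against 893 by limma, and with array weights the calls over all probesets were not counted. With an array left out 1 to 2 receptor probesets were called, and the calls over all probesets were not counted in these fits. The median receptor difference moved to -0.11 with the hexokinase covariate over both tasks, and also to -0.11 after S training. Between AU-S and AI-S, 1 receptor probeset was called with array weights, Grm8 at -0.32 (limma adjusted p = 0.0774), and 0 to 1 with an array left out. The calls over all probesets were not counted under these settings either. Counting any probeset of a gene gave 1 anchor or regulator and 2 genes of glutamate supply and removal in place of 0, and leaving out an array gave 0 to 1 for the former. The cause of these changes was not tested.

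Same-numbered arrays correlated between -0.39 and 0.31 in their deviations from the group means. Arrays of unlike numbers were not compared in this way, so whether the replicate numbers of the labels pair the rats cannot be told. With the number as a replicate block, Grm8 had -0.31 (limma adjusted p = 0.0202) and Grm7 0.27 (limma adjusted p = 0.125) for AU-act against AI-act, and the block changed no call of a receptor probeset. Of the G protein list it left 2 genes called in place of 3, without Gnai1 (0.29, limma adjusted p = 0.0513). SAM was not run for the interaction, and the dimmer Grm5 probeset was not tested under the intensity limit of 6. The dimmer Grm5 probeset lies near the bottom of the measured range, where low signal over background limits its precision.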
